A study of Mus musculus with 4 samples.

Results

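The genes described here are the signals and regulators of the apical ectodermal ridge, 8 genes chosen by name: the ligands Fgf4, Fgf8, Fgf9 and Fgf17, the transcription factors Sp6, Sp8 and En1, and the secreted Wnt enhancer Rspo2. Each symbol had its own row among the 25239 gene symbols of the deposited count table. The libraries came from hindlimb buds of FVB mouse embryos at embryonic day 11.5, and each population was represented by 2 libraries. The comparison set mCherry-positive anterior cells against mCherry-negative central cells, after dissection, dissociation and fluorescent sorting. Position and reporter signal differed together between these populations, so their parts cannot be told apart. Below, "anterior cells" stands for the mCherry-positive anterior population and "central cells" for the mCherry-negative central population. Both populations carried the same reporter, H11 hsp68-hZRS(404G>A)-mCherry, in which a human ZRS enhancer with the 404G>A change is joined to the hsp68 promoter at the H11 locus. The labels give the genotype of both populations as wild-type, and no group without the reporter was analysed here. The labels do not say whether the replicates came from separate embryos, so p-values measure the spread between these libraries, which may be technical.

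The apical ectodermal ridge is a strip of thickened epithelium along the distal rim of the limb bud. It secretes FGFs that keep the mesenchyme beneath it proliferating and support outgrowth, and that mesenchyme answers with Fgf10, which maintains the ridge. Wnt signalling in the ectoderm and the factors Sp6 and Sp8 are needed to form and keep the ridge, and En1 marks the ventral ectoderm that borders it. In bulk libraries, fewer cells of a type and less RNA per cell cannot be told apart.

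The libraries held 30080925 to 33257383 counts, and levels below are CPM (counts per 1 M counts) scaled by TMM, edgeR's correction for library composition. A count of 3, taken as the floor of detection, corresponded to 0.0899 to 0.102 CPM. Central replicate 2 stood apart in its epithelial genes. Of the 15 ectoderm markers tested, 10 were more than 1 log2 unit higher in central replicate 2 than in central replicate 1, against 2.73% of all 14610 tested genes. The basal keratin Krt5 measured 9.77 CPM in central replicate 1 and 41.6 in central replicate 2, and E-cadherin (Cdh1) measured 3.57 and 15.6. In the anterior libraries Krt5 measured 0.240 and 0.136 CPM, and Cdh1 measured 0.240 CPM in replicate 1 and had 0 counts in replicate 2.

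Ridge gene expression was lower in anterior cells for most of the group. Of the 8 genes, 6 had enough counts to be tested, and 5 of these were lower in anterior cells at an adjusted p-value under 0.05 (Benjamini-Hochberg, over all tested genes, from the quasi-likelihood F test in edgeR). Over all tested genes, 22.9% were called in either direction and 12.3% were called lower in anterior cells. The called genes were Fgf8, Fgf9, Fgf17, En1 and Rspo2, which were also the 5 tested ridge genes whose anterior and central values did not overlap; over all tested genes, 32.6% lay wholly lower and 30.8% wholly higher in anterior cells, 63.5% in all. Sp8 was tested and not called, and Fgf4 and Sp6 were too low to be tested. Fgf8, Fgf9 and En1 reached the count filter's minimum of about 10 counts in both libraries of the central population only. They entered the test through the libraries where they were high, so a lower call was close to fixed in advance for them. The count of 5 and the median below rest partly on them. Ectoderm markers near the floor of detection in anterior cells, such as Krt5 and Cdh1, entered in the same way. So did Trp63, Rspo1, Lgr6, Rnf43, Tbx5 and several myogenic markers, given below. Fgf17 no longer passed without central replicate 2, anterior replicate 1 or anterior replicate 2, which left 4 called in each case, and with limma-voom (an alternative test) 3 were called. The log2 fold change between populations (log2FC, anterior minus central) had a median of -4.39 for the 6 tested genes, against -0.00866 over all tested genes. Together the 8 genes made up 6.69 and 5.59 CPM in the anterior libraries, against 38.6 and 86.0 CPM in the central libraries.

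**Figure D1:**
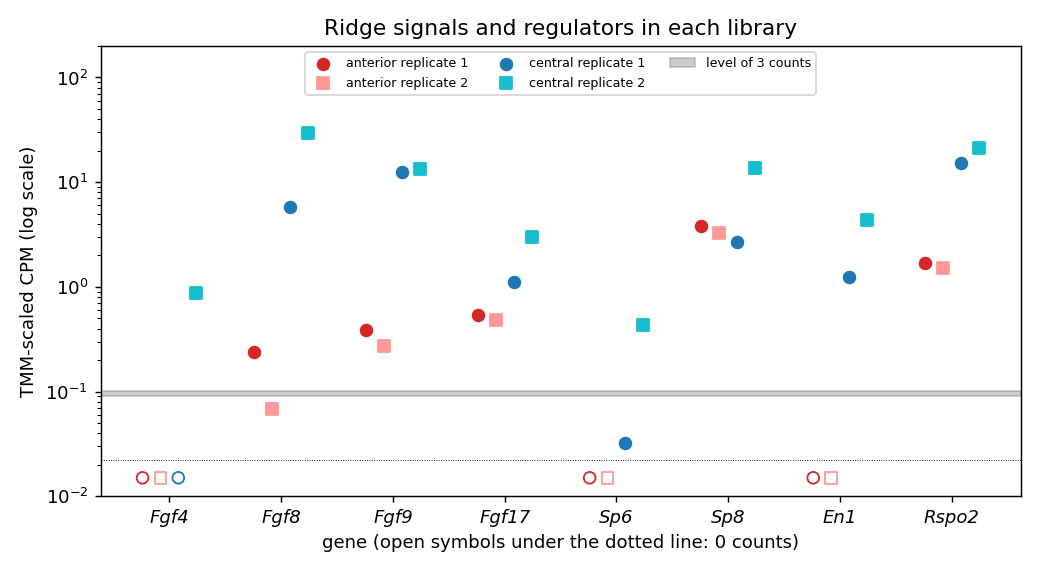
Expression of the 8 ridge genes in each of the 4 libraries, as TMM-scaled CPM on a log axis. Filled symbols are single libraries, open symbols under the dotted line are libraries with 0 counts, and the grey band is the level of 3 counts. For Fgf8, Fgf9, Fgf17, En1 and Rspo2 both central libraries lie above both anterior ones, whereas the anterior values of Sp8 lie between its central values.

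Fgf8, the ridge FGF expressed along the whole ridge, lies on chromosome 19 at 45736798 to 45742915 on the minus strand (GRCm38, GENCODE M21). Its counts were 8 and 2 in anterior cells against 177 and 946 in central cells. Scaled, these are 0.240 and 0.0682 CPM against 5.75 and 29.2 CPM. The second anterior library was below the floor of detection, and the groups did not overlap. The log2FC was -6.75 ± 0.92 (SE; edgeR adjusted p-value 0.00120). The size depended on single libraries, at -5.15 without central replicate 2, -7.48 without central replicate 1, -7.92 without anterior replicate 1 and -6.16 without anterior replicate 2. The call was lost with limma-voom, at an adjusted p-value of 0.119, and the alternatives ran from 1.31e-11 to 0.119.

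Fgf9, a ridge ligand that is also made in other embryonic tissues, lies on chromosome 14 at 58070547 to 58112720 on the plus strand. Its counts were 13 and 8 in anterior cells against 388 and 431 in central cells. Scaled, these are 0.390 and 0.273 CPM against 12.6 and 13.3 CPM. The central libraries were close to each other, unlike those of Fgf8. Its log2FC was -5.26 ± 0.29 (SE; edgeR adjusted p-value 7.24e-06), and it was called under each of the 14 alternatives run. A processed pseudogene, Gm17109, overlaps Fgf9 on the opposite strand, and without knowing whether the counting used strand their reads cannot be told apart.

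Fgf17, a ligand of the same subfamily as Fgf8, lies on chromosome 14 at 70636203 to 70642268 on the minus strand. Its counts were 18 and 14 in anterior cells against 34 and 97 in central cells. Scaled, these are 0.540 and 0.477 CPM against 1.10 and 2.997 CPM. The groups did not overlap, but central replicate 1 lay much closer to the anterior libraries than central replicate 2 did. The log2FC was -2.003 ± 0.58 (SE; edgeR adjusted p-value 0.0376), and the alternatives ran from 0.00360 to 0.385. The call was lost without central replicate 2 (log2FC -1.11, edgeR adjusted p = 0.385), without anterior replicate 1 (0.0704), without anterior replicate 2 (0.101) and with limma-voom (0.0863).

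Fgf4, a ligand of the posterior and distal ridge, lies on chromosome 7 at 144847367 to 144865243 on the plus strand. Its 28 counts, or 0.865 CPM, were in central replicate 2, and the other 3 libraries had 0. Since central replicate 1 was also at 0, no fold is given. It did not pass the count filter. With no filter its edgeR adjusted p-value was 0.0440, and that call rests on a single library.

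Among the regulators, En1, the homeodomain factor of ventral ectoderm, lies on chromosome 1 at 120602418 to 120607992 on the plus strand. No En1 count was found in either anterior library, against 38 and 141 in central cells, or 1.23 and 4.36 CPM. Set against a floor of 3 counts in each anterior library, En1 was at least 29.1-fold lower in anterior cells (edgeR adjusted p = 0.00238). Without central replicate 2 that bound was 12.8-fold and the gene was still called (edgeR adjusted p = 0.00187), and without central replicate 1 the bound was 45.3-fold.

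Sp8, a zinc-finger factor of limb ectoderm and ridge, lies on chromosome 12 at 118846329 to 118852576 on the plus strand. Sp8 did not follow the others. Its counts were 128 and 96 in anterior cells against 82 and 442 in central cells. Scaled, these are 3.84 and 3.27 CPM against 2.66 and 13.7 CPM. Both anterior values were above central replicate 1 and below central replicate 2. The log2FC was -1.20 ± 0.59 (SE; edgeR adjusted p-value 0.189), and the alternatives with all 4 libraries ran from 0.0422 to 0.524. Without central replicate 2 the direction turned, to 0.42, and without central replicate 1 the log2FC was -1.94. In these fits the spread between replicates came from the anterior libraries alone. With no count filter Sp8 was called lower (edgeR adjusted p = 0.0422).

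Sp6, the related factor of the ridge, lies on chromosome 11 at 97013394 to 97024734 on the plus strand, and the noncoding gene Gm11532 overlaps it on the opposite strand. Sp6 had 0 counts in both anterior libraries, 1 in central replicate 1 and 14 in central replicate 2. The groups are separated by a single count, so no fold is given. It did not pass the filter, and the fit with no filter gave an edgeR adjusted p-value of 0.133.

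Rspo2, a secreted protein that strengthens Wnt signalling, lies on chromosome 15 at 43020794 to 43170826 on the minus strand. Its counts were 56 and 44 in anterior cells against 468 and 685 in central cells. Scaled, these are 1.68 and 1.4999 CPM against 15.2 and 21.2 CPM. The anterior libraries were near each other and well above the floor of detection. The log2FC was -3.51 ± 0.24 (SE; edgeR adjusted p-value 2.14e-05), and the gene was called under each of the 14 alternatives.

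RefSeq start sites on GRCm38.p6 were matched for 4 of the 8 genes: En1, Fgf4, Fgf9 and Sp8. The windows below are shown for the gene with no anterior counts (En1), the matched gene that was called under every alternative (Fgf9) and the gene that was not called (Sp8, the second of its 3 listed start sites). They give up to 250 bases before the start, 5′ to 3′ on the gene's strand, and the En1 window stops where a GENCODE exon of the gene begins. Capitals mark GC boxes, the letters GGGCGG on either strand, since Sp-family proteins are known to bind GC-rich boxes.
En1, chr1:120602237-120602417, plus strand: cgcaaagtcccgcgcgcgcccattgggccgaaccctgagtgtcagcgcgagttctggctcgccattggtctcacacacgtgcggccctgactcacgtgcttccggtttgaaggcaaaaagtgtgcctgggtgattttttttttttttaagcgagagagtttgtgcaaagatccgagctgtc
Fgf9, chr14:58072436-58072685, plus strand: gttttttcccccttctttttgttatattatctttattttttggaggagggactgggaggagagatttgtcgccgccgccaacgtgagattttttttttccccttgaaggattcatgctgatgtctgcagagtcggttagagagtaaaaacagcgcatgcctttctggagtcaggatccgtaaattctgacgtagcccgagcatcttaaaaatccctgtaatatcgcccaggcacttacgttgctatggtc
Sp8, chr12:118846983-118847232, plus strand: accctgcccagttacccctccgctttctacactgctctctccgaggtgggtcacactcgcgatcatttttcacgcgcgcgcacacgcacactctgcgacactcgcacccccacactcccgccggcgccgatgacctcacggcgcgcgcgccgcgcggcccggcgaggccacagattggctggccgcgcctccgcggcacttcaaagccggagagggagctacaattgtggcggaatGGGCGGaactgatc
The full windows were 56.0% G or C for En1, 44.8% for Fgf9 and 67.2% for this Sp8 start, against a median of 52.4% over 32851 promoter windows of 250 bases. The Sp8 window held 1 GC box and the windows of En1 and Fgf9 held none. A GC box occurred in 32.7% of all promoter windows. The Fgf4 window held 2, at -214 to -209 and at -188 to -183 relative to the start. The letters TATAAA were found in the first Sp8 window only among these genes' windows (12.4% of all windows on either strand), and CTTTGAA or CTTTGTT, letters bound by TCF and LEF factors, in the second Sp8 window only (9.17%). None of these matches overlapped another. These are matches of letters and say nothing of binding in these cells.

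Per kilobase of exon, which allows levels to be compared between genes, Fgf8 was the most abundant ridge gene of central cells at 13.0 ± 12.3 CPM per kb (SD, n = 2). In central replicate 1 alone it was also first, at 4.26 CPM per kb against 2.97 for Rspo2 and 2.71 for Fgf9. In the means, Rspo2 followed at 3.56 ± 0.825 and Fgf9 at 2.79 ± 0.109, then Sp8 at 1.79 ± 1.71, Fgf17 at 1.21 ± 0.792 and En1 at 1.07 ± 0.841 CPM per kb. Fgf4 and Sp6 were lowest, at 0.135 ± 0.191 and 0.0605 ± 0.0736 CPM per kb. No 2 neighbours in this central order differed by more than the larger of their SDs, except En1 and Fgf4, whose means differed by slightly more than the SD of En1. In anterior cells the order was different. Sp8 came first at 0.780 ± 0.0877 CPM per kb, beyond its spread from Rspo2 at 0.311 ± 0.0248. Rspo2 and Fgf17 (0.301 ± 0.0261) did not differ beyond their spread, and Fgf8 (0.114 ± 0.0899) and Fgf9 (0.0712 ± 0.0178) were lower and did not differ beyond their spread from each other. En1, Fgf4 and Sp6 were at 0. Exon lengths came from GENCODE M21, which may not be the annotation used for counting.

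**Figure D2:**
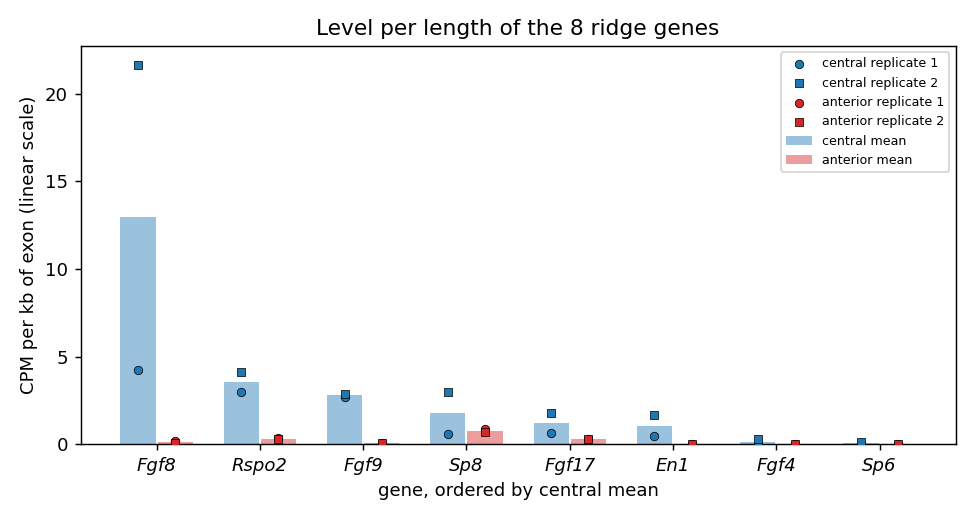
Level of each ridge gene per kb of exon on a linear axis, ordered by the central mean. Bars are means over 2 libraries and symbols are single libraries. Fgf8 leads in central cells (13.0 CPM per kb) with widely separated replicates, and Sp8 leads in anterior cells (0.780 CPM per kb).

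The ridge genes also differed in how far they moved between the central libraries. The ratio of central replicate 2 to central replicate 1 was 5.08 for Fgf8 (95% exact binomial interval 4.02 to 6.42), 5.13 for Sp8 (3.66 to 7.34), 3.53 for En1 (2.12 to 6.25) and 2.71 for Fgf17 (1.55 to 5.08). It was 1.39 for Rspo2 (1.18 to 1.65) and 1.06 for Fgf9 (0.869 to 1.29). The intervals were computed on halved counts, because both mates of a read pair appear to have been counted, and they cover counting error only. Ectoderm markers varied too, with a median log2 difference between the central libraries of 1.67 over the 15 tested. The ratio was 4.25 for Krt5, 4.36 for Cdh1, 2.75 for Epcam and 6.41 for the epithelial splicing factor Esrp1, but 1.49 for Krt8, 1.23 for Krt18, 1.11 for Grhl3 and 1.02 for Cdh3. Fgf8, Sp8, En1 and Fgf17 thus lay with the more variable markers. Fgf9, at a log2 difference of 0.0797, lay under the median absolute difference of 0.149 over all tested genes, and Rspo2 stood at 0.477. A difference as small as that of Fgf9 was thus common over all tested genes. The myogenic markers, also called lower in anterior cells, had a median log2 difference of -0.00996. Single myogenic genes were not all steady, at -1.84 for Pax7, -1.45 for Myog and 0.324 for Pax3. The part of ectoderm content in these differences was not tested.

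**Figure D3:**
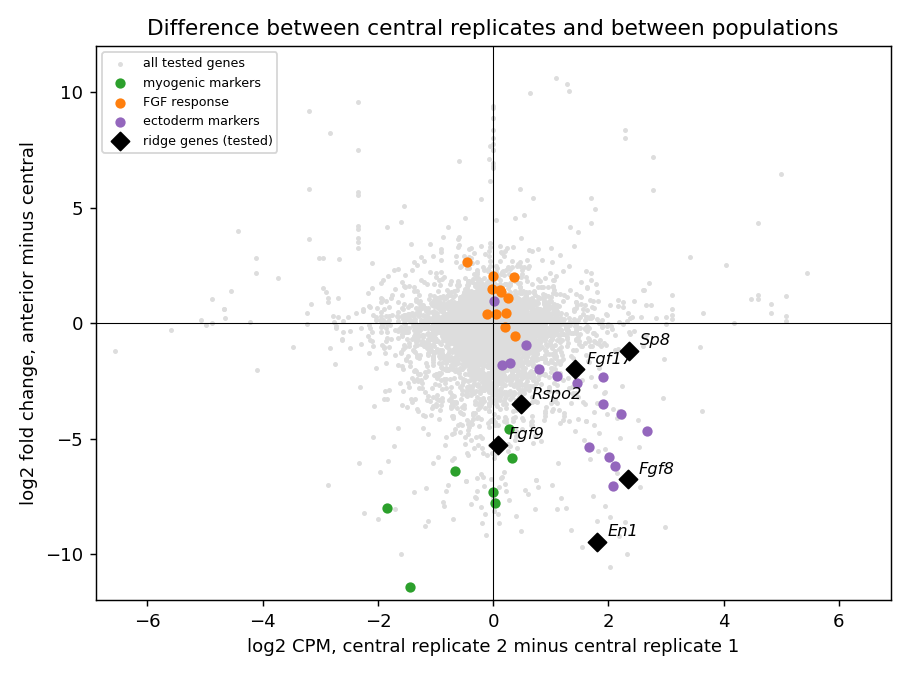
Log2 CPM difference between the central replicates (horizontal) and log2FC between anterior and central cells (vertical) for all 14610 tested genes, with the 6 tested ridge genes as diamonds. Sp8, Fgf8, En1 and Fgf17 lie to the right with most of the ectoderm markers, and Fgf9 and Rspo2 lie further left, at 0.0797 and 0.477. En1 is placed at its fitted value, which is not a bound.

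Ectoderm marker expression moved with the ridge genes between the populations. Of 16 listed ectoderm markers, 15 were tested, and 11 were called lower and 1 higher in anterior cells (median log2FC -2.59). Without central replicate 2 the median was -1.72 and the number called lower was 8, and with limma-voom it was 4. In anterior replicate 2, 3 of the markers (Cdh1, Krt19 and Perp) were at 0. The marker called higher was Cdh3, encoding P-cadherin, at 219 ± 17.7 CPM in anterior against 113 ± 1.20 in central cells (SD, n = 2; log2FC 0.95, edgeR adjusted p = 4.55e-05). Cdh3 alone made up 94.97% and 94.2% of the summed marker level in the anterior libraries, against 67.6% and 41.5% in the central libraries. Without it the remaining 15 markers summed to 12.3 and 12.7 CPM in the anterior libraries, against 54.0 and 161 CPM in the central libraries. Different markers led that sum in the populations. In anterior cells these were Krt18 (mean 3.97 CPM), Epcam (2.68) and Krt8 (2.67), and the next, Cldn7, was at 0.643 CPM. In central cells Krt5 led that sum, at a mean of 25.7 CPM against 0.188 CPM in anterior cells. On that sum the central mean was 8.62-fold the anterior mean, and on the sum of the 8 ridge genes it was 10.1-fold. Without central replicate 2 these were 4.32-fold and 6.28-fold.

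Expressed as a percentage of the summed ectoderm markers without Cdh3, a denominator chosen after the data were seen, Fgf8 stood at 1.95% and 0.536% in the anterior libraries, against 10.6% and 18.1% in the central libraries. Fgf9 stood at 3.17% and 2.14% against 23.3% and 8.25%. Both thus remained lower in anterior cells in every library on this scale. Sp8 stood at 31.2% and 25.7% against 4.93% and 8.46%, and Fgf17 at 4.39% and 3.75% against 2.04% and 1.86%. Sp8 and Fgf17 were thus higher in anterior cells relative to this sum. Since different markers led the sum in the populations, these ratios are not levels per amount of ectoderm. Whether the sum follows ectoderm content was not tested. Rspo2 overlapped, at 13.7% and 11.8% against 28.1% and 13.1%. On the denominator chosen first, the full list that Cdh3 dominates, Sp8 and Fgf17 were lower in anterior cells. No test was made on these ratios.

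The 5 genes whose levels over the 4 libraries were most like those of Fgf8, by Euclidean distance between centred log2 CPM values, were Krt5 (0.666), St14 (1.08), Wnt7a (1.19), Fat2 (1.20) and Kremen2 (1.24). With 4 libraries many genes can be near each other on this measure. Wnt7a, the dorsal ectoderm Wnt, was counted 4 and 0 times in anterior cells, against 58 and 196 times in central cells. Krt5 had 8 and 4 against 301 and 1346.

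Relatives of the ridge genes went in both directions. Of 18 other genes of the FGF family, not all of them secreted ligands, 8 were tested, with 4 called lower and 2 higher. With a mean count of at least 50, 1 was called lower and 2 higher. Fgf18 measured 2.32 ± 0.0972 CPM in anterior against 21.7 ± 2.21 in central cells (SD, n = 2; log2FC -3.23 ± 0.18 SE, edgeR adjusted p = 7.63e-06), and Fgf11 was lower by less (log2FC -1.53, adjusted p = 0.0490), a call lost in 6 of the alternatives, 3 of them fits with 1 library left out (anterior replicate 1, 0.0790; anterior replicate 2, 0.206; central replicate 1, 0.271). Fgf10, the mesenchymal ligand that acts on the ridge, stood higher in the anterior population, at 67.4 ± 5.06 against 26.6 ± 2.997 CPM (log2FC 1.34 ± 0.11 SE, edgeR adjusted p = 5.17e-05). Fgf13, an intracellular member of the family that is not a secreted ligand, was also higher (log2FC 1.78). The R-spondins split likewise. Rspo3 was lower, at 18.5 ± 0.0501 against 39.1 ± 3.03 CPM (log2FC -1.08, edgeR adjusted p = 0.000158), and Rspo4 was higher, at 14.2 ± 3.84 against 3.25 ± 0.450 CPM (log2FC 2.13, adjusted p = 0.000446). Rspo1 had 1 and 0 counts against 29 and 24, and was called lower (edgeR adjusted p = 0.00572). It entered the test through the central libraries only, so a lower call was close to fixed in advance. En2, the paralogue of En1, had 2 counts in central replicate 1 and 0 elsewhere.

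Of the 7 other Sp factors tested, 1 was called higher and 1 lower, both near the threshold. Sp5, a Wnt target, had a log2FC of -1.02 (edgeR adjusted p = 0.0447). Its call was lost without anterior replicate 1 (0.0868), anterior replicate 2 (0.156) or central replicate 2 (0.191), with limma-voom (0.0517) and with the DESeq2 Wald test (0.0695). The ubiquitous Sp1 had a log2FC of 0.22 (edgeR adjusted p = 0.0470) and lost its call when scaled by library size alone (0.0816) or upper quartile (0.0789), with a mean count of at least 50 (0.0572), and without anterior replicate 1 (0.202), anterior replicate 2 (0.220) or central replicate 1 (0.0983). Sp9, the close relative of Sp8 in the ridge, was counted 329 and 84 times in anterior cells, against 56 and 82 times in central cells. Its log2FC of 1.55 ± 0.51 (SE) was not called (edgeR adjusted p = 0.0617), and the anterior replicates differed widely. It was called without anterior replicate 2 (log2FC 2.18, edgeR adjusted p = 0.000261), without central replicate 2 (0.0135), with no count filter (0.00457) and with the DESeq2 Wald test (0.0125). Sp2, Sp3, Sp4 and Sp7 had log2FC values between -0.0784 and 0.731 and were not called. Sp3 was called without central replicate 2 (0.0253), with no count filter (0.0337) and with the DESeq2 Wald test (0.0453).

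**Figure D4:**
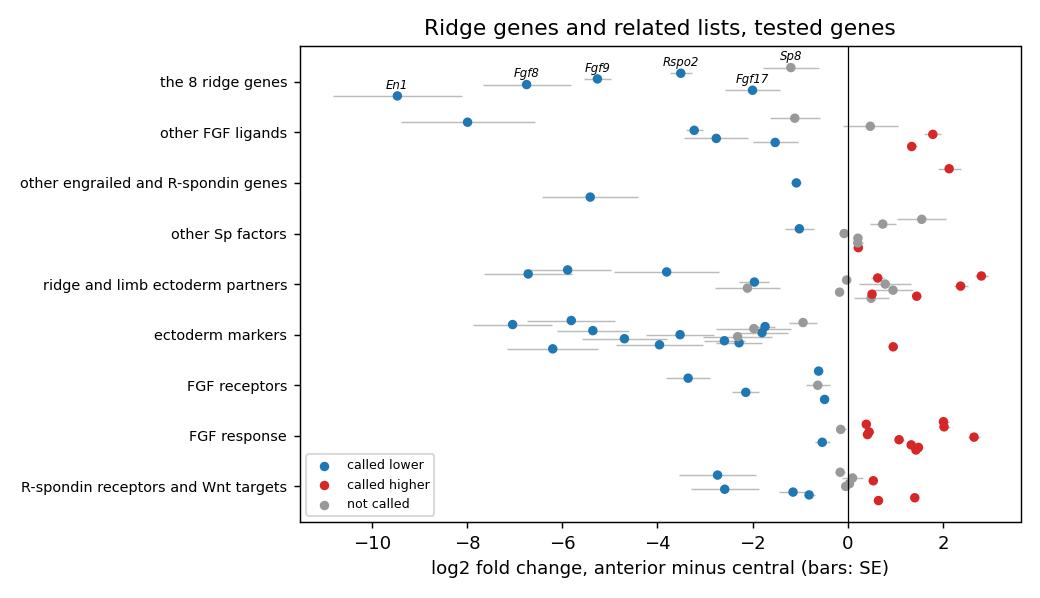
Log2 fold change (anterior minus central) of the tested ridge genes and of 8 related gene lists, with SE bars. Blue points were called lower, red points higher and grey points not called at an edgeR adjusted p-value under 0.05. The ridge genes and ectoderm markers lie mostly to the left, and the FGF response genes mostly to the right.

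Genes that work with the ridge FGFs in limb ectoderm were mixed, with 4 of 15 called lower and 5 higher (median log2FC 0.489, or -0.0711 without anterior replicate 1). Those lower included Trp63, the epithelial master regulator needed for a ridge to form, at 0.128 ± 0.0116 against 13.8 ± 13.4 CPM (SD, n = 2; log2FC -6.71 ± 0.93 SE, edgeR adjusted p = 0.00127; 0.109 with limma-voom), and the Notch ligand gene Jag2 (log2FC -1.96, adjusted p = 0.00273). Trp63 entered the test through the central libraries only. It measured 4.35 CPM in central replicate 1 and 23.3 in central replicate 2. Without the latter the log2FC of Trp63 was -5.04 and that of Jag2 was -1.36. Those higher included Msx2, Dlx5 and Bmp4, with log2FC values of 2.80, 2.37 and 1.44 (edgeR adjusted p-values 3.72e-06, 1.35e-05 and 1.18e-05). These genes are expressed in limb mesenchyme as well as in the ridge.

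Of 5 tested genes of the FGF receptor family, 4 were called lower in anterior cells, where 12.3% of all tested genes were. Fgfr1, the main mesenchymal receptor, measured 343 ± 2.07 against 482 ± 14.8 CPM (SD, n = 2; log2FC -0.49, edgeR adjusted p = 0.000696). Fgfr2 measured 17.01 ± 9.40 against 75.7 ± 6.56 CPM (log2FC -2.14, adjusted p = 0.00107), and Fgfr4 and Fgfrl1 had log2FC values of -3.36 and -0.61. Fgfr3 was not called (log2FC -0.63, edgeR adjusted p = 0.112), though it was called with no count filter (0.0330), without anterior replicate 1 (0.0376) and without central replicate 2 (0.00163). Genes known to respond to FGF signalling differed in the opposite direction from the ridge FGFs, with 10 of 12 called higher in anterior cells, where 10.7% of all tested genes were. Lhx2, an FGF-dependent factor of distal mesenchyme, measured 341 ± 4.83 against 54.4 ± 11.8 CPM (SD, n = 2; log2FC 2.65 ± 0.13 SE, edgeR adjusted p = 3.72e-06), and the FGF feedback inhibitor Spry1 measured 145 ± 24.5 against 35.8 ± 0.187 CPM (log2FC 2.02 ± 0.11 SE, adjusted p = 8.19e-06). Grem1, the BMP antagonist that links mesenchyme and ridge, was the 1 called lower (log2FC -0.54, edgeR adjusted p = 0.0404). That call was lost without anterior replicate 1 (0.162) or central replicate 2 (0.123). The median of this list was 1.20.

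The R-spondin receptors Lgr4 and Lgr5 were lower in anterior cells (log2FC values -0.81 and -1.15, edgeR adjusted p-values 0.00136 and 0.0199). The low-count Lgr6 was also called lower (-2.59, edgeR adjusted p = 0.0311), but it entered the test through the central libraries only. Lgr5 was not called without anterior replicate 2 (0.101). Lgr6 was not called in any of the 4 fits that left out a library (0.0596 to 0.234), with the DESeq2 Wald test (0.0882) or with limma-voom (0.0521). The Wnt target genes Lef1, Axin2 and Nkd1 were higher, with log2FC values of 1.40, 0.64 and 0.53 (edgeR adjusted p-values 6.26e-06, 0.000674 and 0.00316). Notum, which encodes a secreted Wnt inhibitor, was not called (log2FC 0.0980, edgeR adjusted p = 0.794; -0.162 without central replicate 1). Rnf43, a feedback inhibitor of Wnt receptors named after its values were seen, was counted 7 times in each anterior library against 16 and 81 times in central cells, and was called lower (log2FC -2.74, edgeR adjusted p = 0.0412). That call was lost without central replicate 2 (-1.20, 0.513), anterior replicate 1 (0.0894) or anterior replicate 2 (0.0827), and with limma-voom (0.133). Znrf3, a more abundant gene of the same list, measured 28.5 CPM in anterior against 31.9 in central cells. It was not called (log2FC -0.16, edgeR adjusted p = 0.304). Of the 11 genes of this list, 4 were called lower, 3 higher and 4 not called. Without anterior replicate 2, 1 was called lower and 3 higher.

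Markers of other cell types also differed between the sorted populations. Myogenic markers were called lower in anterior cells in 7 of 7 genes, endothelial markers in 5 of 7 and Schwann precursor markers in 2 of 3 tested (1 with a mean count of at least 50 or with halved counts), whereas erythroid markers were called higher in 6 of 6 tested and macrophage markers in 3 of 6 (1 without anterior replicate 1 or without central replicate 1). Summed myogenic markers were at 2.35 to 4.17 CPM in the anterior libraries, against 142 to 143 CPM in the central libraries. Summed erythroid markers were at 3287 and 8382 CPM against 5.0005 and 7.91 CPM. Their part in the levels of Fgf9, Rspo2 and the other ridge genes was not tested. Of the limb mesenchyme markers, 4 of 9 were called higher: Msx1, Prrx2, Fgf10 and Twist1 (log2FC 3.26, 1.91, 1.34 and 0.83). Those called lower, 2 of 9, were Pdgfra and the low-count Tbx5 (-1.17 and -5.80). Prrx1, which marks limb mesenchyme, did not pass the test (log2FC 0.07, edgeR adjusted p = 0.473), nor did Tbx4 (-0.14) and Pitx1 (-0.05).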

How the data were processed

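RNA of sorted hindlimb bud cells was sequenced in 2 anterior and 2 central libraries, paired-end to about 25 M reads per the labels. The authors deposited whole-number read counts per gene symbol, not normalized. STAR 2.7.9a, HTSeq, DESeq2 3.16 and the build mm10 are named in the submitters' processing notes; the annotation and the use of strand are not given in the sources used here. Even numbers made up 72.8% to 75.6% of counts from 1 to 10, the pattern left when both mates of a pair are counted.

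Counts were fitted with edgeR 4.0.16 (R 4.3.3): filterByExpr, TMM, quasi-likelihood F test, anterior against central with no block, 2 residual degrees of freedom, Benjamini-Hochberg adjustment over 14610 genes, threshold 0.05. The SE is the absolute log2 fold change divided by the square root of F. With 2 libraries a group, an exact two-sided permutation test of one gene cannot go below 0.333. The fits were tested on simulated counts. Alternatives used DESeq2 1.42.0 and limma 3.58.1 (voom), other scalings and filters, halved counts, a replicate block, removal of erythroid genes, and leaving out each library, which assumes that the lone library varies like the other group.

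The ridge genes and the 14 related lists were chosen with earlier results of these data known. All 8 ridge genes are named. In each other list the rule picked up to 3 called genes per direction. These had the smallest adjusted p-values and a mean of at least 1 CPM. The FGF receptors, Sp factors, engrailed and R-spondin genes were picked in full. Not every gene picked by the rule is named above, chiefly among the markers of other cell types. Other genes named were chosen after their values were seen. Likeness to Fgf8 used log2 CPM with a prior count of 0.5.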

Additional observations from a re-analysis of the deposited data

How the results depend on the processing

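The 3351 genes called between anterior and central cells stayed within 1.5 times under each alternative except without anterior replicate 2, and leaving out single libraries gave 2009 to 3697. The 5 called ridge genes became 3 with a mean count of at least 50, where En1 and Fgf17 were not tested, and 3 with limma-voom, where Fgf8 and Fgf17 were not called and the cause was not tested. Leaving out single libraries gave 4 to 7 called ridge genes. The log2 fold change of Sp8 reversed to 0.42 without central replicate 2, in a range of -1.94 to 0.42 over the libraries left out. Sp4, not called and near 0, reversed to 0.0288 without anterior replicate 2 and 0.00286 without central replicate 1 (-0.186 to 0.0288 over the libraries left out). Notum, also not called, reversed to -0.162 without central replicate 1 (-0.162 to 0.423 over the libraries left out).

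With replicate number as a block, 3586 genes and the same 5 ridge genes were called. Of the other genes named, the block changed 2 calls, Sp9 (1.34, edgeR adjusted p = 0.0473) and Fgfr3 (-0.61, 0.0136), both then called. The main fit was planned without this block. Replicate differences of the populations correlated across genes at 0.039, which cannot show whether libraries with the same number were collected together.

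Levels relative to ectoderm markers depended on the denominator. The log2 ratio of anterior to central was, for the full list, -6.76 (Fgf8), -5.45 (Fgf9), -1.996 (Fgf17), -1.10 (Sp8) and -3.61 (Rspo2). With Epcam alone it was -4.05, -3.03, 0.58, 1.59 and -1.16 in the same order. With Esrp1, Grhl2 and Cdh1 it was -2.19, -1.19, 2.65, 3.76 and 0.80. On that sum the populations overlapped for Fgf9, at 35.1% and 57.1% in anterior against 171% and 39.0% in central libraries. Rspo2 overlapped too, at 151% and 314% against 206% and 62.0%. Anterior counts behind that sum were low (Esrp1 6 and 8, Grhl2 23 and 6, Cdh1 8 and 0). With the list without Cdh3, added after the data were seen, it was -3.53, -2.57, 1.06, 2.09 and -0.70. Leaving out single libraries on the full list gave -2.31 to -1.60 for Fgf17, -1.69 to -0.0615 for Sp8 and -3.73 to -3.49 for Rspo2.

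Krt5 and Cdh1 were not called with limma-voom (0.105 and 0.0725), and the cause was not tested. In the anterior libraries Fgf4, Sp6 and En1 had 0 counts and Fgf8 had 8 and 2, and levels under the floor of 3 counts were not detectable at this depth.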
